A study of Ovis aries with 12 samples.

Results

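T cell marker genes were followed in the corpus luteum of the ewe, the ovarian gland that secretes progesterone after ovulation. The 9 genes CD3G, CD3D, CD3E, CD247, CD2, CD4, CD8A, LCK and GZMB were chosen by name, with earlier results of these data known. All probe sets that the platform annotation gives to 1 of these symbols alone were taken. They comprised 15 of 24016 probe sets tested and 9 of 9155 gene symbols. The samples were 12 glands, each from a different ewe and each on 1 Affymetrix bovine array. The groups were day 14 pregnant, day 14 non-pregnant, day 12 pregnant and day 12 non-pregnant, with 3 ewes each. Pregnant ewes had been bred to a fertile ram, whereas the others were left unbred, with heat checked by a vasectomized ram. The labels give no breed, age or treatment beyond this, and the whole gland was frozen, with no sorting of cells.

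A T cell recognises antigen through a receptor whose variable chains are carried to the surface and coupled to signalling by the CD3 chains and CD247. The co-receptors CD4 and CD8 bind class II and class I histocompatibility molecules on the presenting cell and bring the kinase LCK to the receptor, where it phosphorylates tyrosines of the CD3 chains. In ruminants, T cells and macrophages are found in the corpus luteum, and their numbers are known to increase around luteolysis, the regression of the gland in a cycle without pregnancy. The comparison of day 14 with day 12 in pregnant ewes addresses whether transcripts of lymphocytes changed in the gland that pregnancy maintains.

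In pregnant ewes no T cell marker passed the test between the days. Of the 15 probe sets, 13 had a positive difference, against 48.4% of all sets. By the brightest set of each gene, the one with the highest mean level, all 9 were above 0, against 45.3% of all genes. CD3G, the CD3 gamma chain, had the largest difference, at 0.74 ± 0.158 (log2 difference ± standard error, 1.67-fold), and CD247, the zeta chain, was next at 0.43 ± 0.124. CD4 (0.03 ± 0.154) and GZMB (0.07 ± 0.234) differed by less than their standard error. Between pregnant and non-pregnant ewes on day 14, differences of the 9 genes ran from -0.05 for CD3E to 0.33 for LCK, with 0.30 for CD4 and 0.24 for GZMB, and none passed. On day 12, 8 of the 9 genes had a negative pregnancy difference by brightest sets, where 56.6% of all genes were above 0. None of the 9 passed. Of all 15 member sets, 6 were above 0 there, against 53.1% of all sets. Only probe sets below an adjusted p of 0.05 in limma's moderated two-sided test, with Benjamini-Hochberg adjustment over all 24016 probe sets, are described as having risen or fallen.

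Values are log2 expression levels from RMA, which corrects background, equalises the arrays by quantiles and combines the probes of a set. Sheep RNA was read with bovine probes and without detection calls, so levels of different genes are not amounts, and low values may hold no signal at all. The brightest probe sets of the 9 genes stood between percentiles 37.7 (GZMB) and 82.1 (CD247) of mean level over all sets. Of the 15 probe sets, 4 lay in the dimmest 25% of all sets (mean level under 3.59), which were further sets of CD3D, CD2, CD4 and LCK. The glands were marked by steroidogenic transcripts: the 9 luteal markers averaged 10.39 to 11.11 per array. The array medians lay between 5.16 and 5.24. The first principal component, with 29.6% of the variance, placed the 3 day 14 non-pregnant arrays at 18.1, 33.7 and 40.4 and the other 9 between -13 and -7. The 3′ minus 5′ difference of control probe sets, used here as a sign of RNA quality, spanned 1.44 to 1.60 over the day 14 pregnant, 1.29 to 1.43 over the day 14 non-pregnant, 1.57 to 1.60 over the day 12 pregnant and 1.42 to 1.47 over the day 12 non-pregnant arrays. The description labels name 2 kinds of array run, here batch A (4 arrays) and batch B (8 arrays). Replicate 3 of both pregnant groups and replicates 2 and 3 of the day 14 non-pregnant group were in batch A. In whole tissue, fewer cells of a type and less RNA per cell cannot be told apart.

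**Figure D1:**
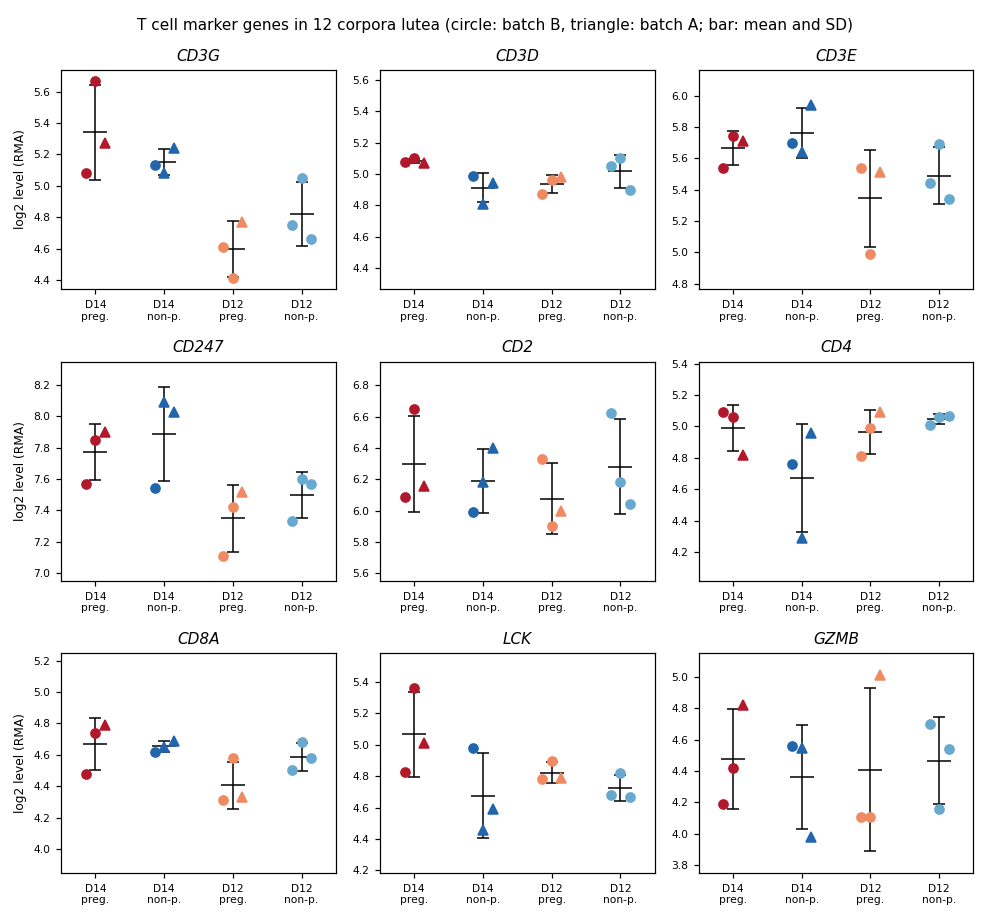
Log2 level of the brightest probe set of each T cell marker gene (vertical axes) in the 12 glands by group, with day 14 left of day 12 and pregnant left of non-pregnant (preg., non-p.). Points are single arrays, horizontal bars the group mean and its SD (n = 3), and triangles mark batch A; all 6 day 14 arrays lie above all 6 day 12 arrays for CD3G, whereas CD2 and GZMB overlap between the days in both kinds of ewe.

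CD3G, an invariant chain of the receptor complex, had levels of 5.08, 5.67 and 5.27 in the day 14 pregnant glands, against 4.61, 4.41 and 4.77 in the day 12 pregnant glands. All 3 later arrays were above all 3 earlier ones, and replicate 2 stood highest on day 14 and lowest on day 12. The difference of 0.74 had a 95% interval of 0.40 to 1.09 for this probe set alone. It ranked 13 by p among all probe sets and did not pass in limma after adjustment (adjusted p = 0.84). Batch A alone (1 array a group) gave 0.50 and batch B alone (2 arrays a group) 0.86, and the value lay between 0.55 and 0.87 when each array was left out in turn. The day 14 non-pregnant glands had 5.13, 5.08 and 5.24, and the day 12 non-pregnant glands 4.75, 5.05 and 4.66. Day 14 was thus above day 12 without overlap in ewes that were not pregnant as well, by 0.29 ± 0.182 (limma adjusted p = 0.585). These glands are other ones than those of pregnant ewes, but the batch term and spread behind both differences came from the same fit of all 12 arrays. The day 14 pregnancy difference was 0.21 ± 0.164 with an interval of -0.15 to 0.57, and the groups overlapped. Without day 14 pregnant replicate 2 it was 0.051. On day 12 it was -0.25 ± 0.164, again with overlap.

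CD247, the zeta chain, which also signals for receptors of natural killer cells, had 7.57, 7.85 and 7.90 in day 14 pregnant glands, against 7.11, 7.42 and 7.52 in day 12 pregnant glands. These groups did not overlap, with 7.567 as the lowest day 14 value and 7.522 as the highest on day 12. The difference was 0.43 ± 0.124 (interval 0.15 to 0.70, 1.34-fold, limma adjusted p = 0.992), at 0.38 in batch A alone and 0.45 in batch B alone. Day 14 non-pregnant glands had 7.54, 8.09 and 8.03, where the 2 batch A arrays were the high ones, and day 12 non-pregnant glands had 7.33, 7.60 and 7.57. The batch term itself was 0.32 (A minus B) for CD247 (limma adjusted p = 0.68), the smallest p for batch among the member probe sets, and its part in the levels was not tested beyond the values within batches. The day 14 pregnancy difference of CD247 was -0.005 ± 0.129, with an interval of -0.29 to 0.28.

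CD3E, the epsilon chain, had 5.54, 5.74 and 5.71 in day 14 pregnant glands, against 5.54, 4.99 and 5.51 in day 12 pregnant glands. The groups met almost exactly, with 5.545 as the lowest day 14 value and 5.543 as the highest on day 12, and day 12 replicate 2 stood apart below. The difference was 0.32 ± 0.151 (limma adjusted p = 0.992), with 0.20 in batch A alone and 0.38 in batch B alone. Without day 12 pregnant replicate 2 it was 0.15. Non-pregnant glands had 5.70, 5.64 and 5.94 on day 14 and 5.44, 5.69 and 5.34 on day 12, which overlapped. The day 14 pregnant glands overlapped the day 14 non-pregnant ones, with a difference of -0.05 ± 0.158.

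CD3D, the delta chain, spanned only 0.29 over the 12 arrays with its brighter probe set. It had 5.08, 5.10 and 5.07 in day 14 pregnant glands, 4.99, 4.81 and 4.94 in day 14 non-pregnant glands, 4.87, 4.96 and 4.98 in day 12 pregnant glands and 5.05, 5.10 and 4.90 in day 12 non-pregnant glands. The day 14 pregnant arrays lay within 0.03 of each other and above every array of the day 14 non-pregnant and day 12 pregnant groups, but not above those of the day 12 non-pregnant group. The differences were 0.15 ± 0.0899 against day 12 pregnant and 0.17 ± 0.0936 against day 14 non-pregnant glands, with limma adjusted p = 0.992 and 0.429. The dim second set of CD3D, with levels of 2.41 to 2.85, was -0.10 ± 0.0985 between the days in pregnant ewes, opposite in sign to the brighter set.

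CD2, an adhesion molecule of T cells and natural killer cells, had 6.09, 6.65 and 6.16 in day 14 pregnant glands, against 6.33, 5.90 and 6.0 in day 12 pregnant glands. These groups overlapped, as did those of the non-pregnant ewes, at 5.99, 6.18 and 6.40 on day 14 and 6.62, 6.18 and 6.04 on day 12. The differences were 0.22 ± 0.194 between the days in pregnant ewes and 0.11 ± 0.202 between pregnant and non-pregnant ewes on day 14, with intervals of -0.20 to 0.64 and -0.33 to 0.55. Its 2 dimmer sets differed by 0.07 and 0.15 between the days in pregnant ewes, and the dimmer of them did not overlap there.

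CD4, the co-receptor of helper T cells, had 5.09, 5.06 and 4.82 in day 14 pregnant glands, against 4.81, 4.99 and 5.09 in day 12 pregnant glands, which spanned the same range. The day 14 non-pregnant glands had 4.76, 4.29 and 4.96, against 5.01, 5.06 and 5.07 in day 12 non-pregnant glands. Every day 14 non-pregnant array was thus below every day 12 non-pregnant one, by -0.33 ± 0.177 (interval -0.72 to 0.06, limma adjusted p = 0.506). The day 14 pregnancy difference was 0.30 ± 0.16, with overlap, and it ranged from 0.137 without day 14 non-pregnant replicate 2 to 0.439 without replicate 3 of that group. The dim second set, at 2.44 to 2.94, gave 0.01 ± 0.12 for pregnancy on day 14 and 0.02 ± 0.133 for day in non-pregnant ewes.

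CD8A, the alpha chain of the cytotoxic T cell co-receptor, had 4.48, 4.74 and 4.79 in day 14 pregnant glands, against 4.31, 4.58 and 4.33 in day 12 pregnant glands. Day 14 replicates 2 and 3 were above all day 12 arrays, and replicate 1 was not. The difference was 0.26 ± 0.112 (interval 0.02 to 0.51, limma adjusted p = 0.992), at 0.47 in batch A alone and 0.16 in batch B alone. Non-pregnant glands had 4.62, 4.65 and 4.69 on day 14 and 4.50, 4.68 and 4.58 on day 12. On day 14 the pregnancy difference was 0.03 ± 0.116, with an interval of -0.22 to 0.28. CD8B, the partner chain, is not among the members and was named after its values were seen. Its mean level was 5.96. Between the days in pregnant ewes it went the other way from CD8A, at -0.31 ± 0.188 (limma adjusted p = 0.992), with overlap.

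LCK, the kinase that starts receptor signalling, was read by 3 probe sets that differed among themselves. The brightest had 4.83, 5.36 and 5.01 in day 14 pregnant glands, 4.98, 4.46 and 4.59 in day 14 non-pregnant glands, 4.78, 4.90 and 4.79 in day 12 pregnant glands and 4.68, 4.82 and 4.67 in day 12 non-pregnant glands. Its day 14 pregnancy difference of 0.33 ± 0.145 was the largest of the members in that comparison (limma adjusted p = 0.314), although the groups overlapped, at 0.49 in batch A alone and 0.11 in batch B alone. Between the days in pregnant ewes it was 0.25 ± 0.14, with overlap. The second set had 3.91, 3.88 and 3.85 in day 14 pregnant glands, against 3.99, 4.0 and 3.98 in day 12 pregnant glands, so it lay lower on day 14 without overlap, by -0.11 ± 0.118. The same set was above day 12 non-pregnant glands (3.59, 3.88 and 3.71) in the day 12 pregnant group, by 0.30 ± 0.123 (limma adjusted p = 0.608). The dimmest set ran from 2.82 to 3.66 and overlapped in all comparisons between 2 groups.

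GZMB, a protease of cytotoxic granules, had 4.19, 4.42 and 4.82 in day 14 pregnant glands, against 4.11, 4.11 and 5.01 in day 12 pregnant glands. The batch A array was the highest of each of these groups, and the batch term was 0.37. Between the days the difference was 0.07 ± 0.234, at -0.19 in batch A alone and 0.19 in batch B alone. Non-pregnant glands had 4.56, 4.55 and 3.98 on day 14 and 4.70, 4.16 and 4.54 on day 12. All groups overlapped, and intervals such as -0.45 to 0.58 for the day difference in pregnant ewes were the widest among the members.

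**Figure D2:**
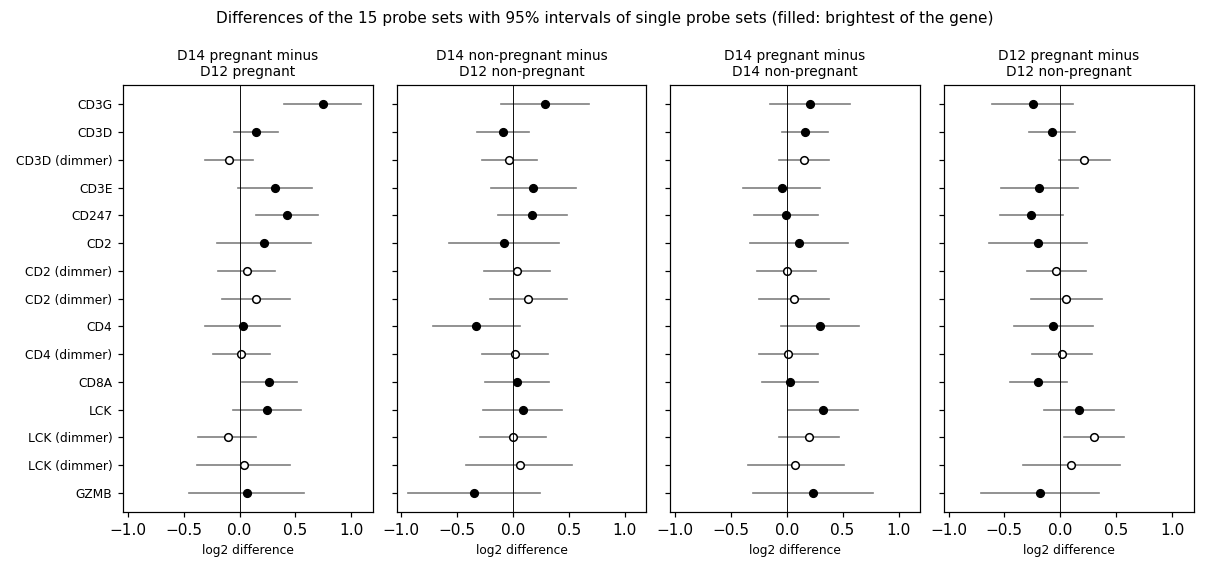
Log2 differences (horizontal axes) of the 15 probe sets with the 95% interval of each single set in 4 comparisons; filled points are the brightest set of a gene. In the left panel all 9 filled points lie right of 0, and the intervals of CD3G, CD247 and CD8A leave out 0; in the other panels most intervals span 0.

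Set against all probe sets, the comparison of day 14 with day 12 in pregnant ewes had 0 of 15 member sets past the adjusted threshold in limma, where 0% of all sets passed. An unadjusted p below 0.05 was met by 3 of 15, CD3G, CD247 and CD8A, against 4.43% of all sets. The arrays did not overlap and were higher on day 14 for 5 of 15, the sets of CD3G, CD3D, CD3E, CD247 and 1 dim set of CD2, against 4.58% of all sets, and lower for 1 of 15, against 5.32%. The median difference of the 9 genes was 0.247, beside -0.015 over all genes, of which 45.3% were above 0. These 9 genes were read on the same arrays, so they are not separate observations of the difference. They were also chosen with earlier results of these data known. The median was 0.143 without day 14 pregnant replicate 2, 0.155 without day 12 pregnant replicate 2 and 0.144 when the probe sets of a gene were averaged.

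**Figure D3:**
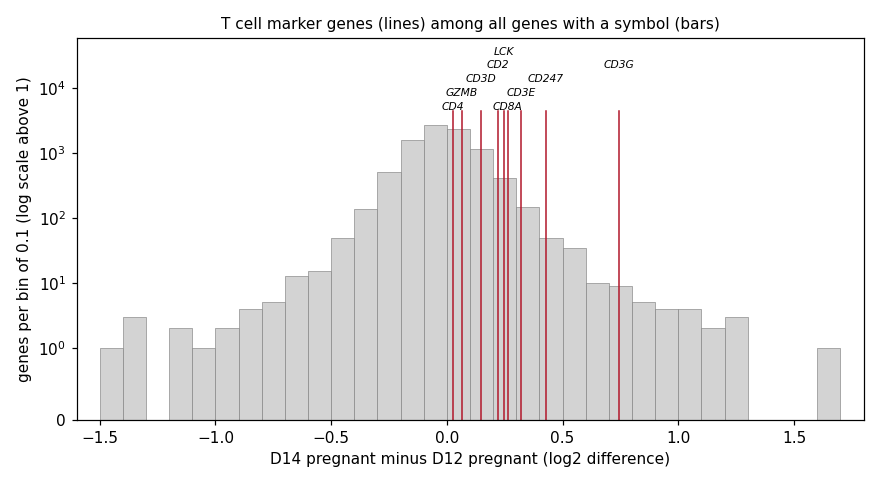
Day 14 pregnant minus day 12 pregnant log2 difference (horizontal axis) of all 9155 genes, counted in bins of 0.1 (grey bars, vertical axis logarithmic above 1), with red lines at the 9 T cell marker genes. All 9 lines, each the brightest probe set of its gene, lie right of 0, from 0.03 for CD4 to 0.74 for CD3G.

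Between pregnant and non-pregnant ewes on day 14, 0 of 15 sets passed in limma, against 1.45% of all sets. The brightest set of LCK alone had an unadjusted p below 0.05, against 15.4% of all sets, and both sets of CD3D were higher without overlap, against 11.1%. The median of the 9 genes was 0.167, beside 0.026 over all genes, and it was 0.051 without day 14 pregnant replicate 2. These shares lie near or below the background, while the day 14 non-pregnant arrays also stood apart on the first principal component and had a lower 3′ minus 5′ difference, and the part of either in these values was not tested.

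On day 12, 0 of 15 sets passed between pregnant and non-pregnant ewes in limma, as did 0% of all sets. The second set of LCK alone had an unadjusted p below 0.05 (7.69% of all sets), and 2 of 15, that set and the dim set of CD3D, were higher without overlap (8.56% of all sets). By brightest sets the median was -0.187, beside 0.027 over all genes, and it was -0.078 without day 12 non-pregnant replicate 1 and -0.081 without day 12 pregnant replicate 2. LCK was the gene above 0, at 0.16 ± 0.145, and CD247 had the smallest p among the 9, at -0.26 ± 0.129 (limma adjusted p = 0.678). The pregnant arrays of this day had 3′ minus 5′ differences of 1.57 to 1.60, against 1.42 to 1.47 for the non-pregnant ones, and their part was not tested.

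In non-pregnant ewes, 0 of 15 sets passed between the days in limma, against 0.391% of all sets, and 0 of 15 had an unadjusted p below 0.05, against 11.7%. CD3G was the 1 set of 15 higher on day 14 without overlap (7.67% of all sets), and CD4 the 1 set lower (12.1%). The median of the 9 genes was 0.037, beside -0.017 over all genes. All batch A arrays of this comparison were day 14 ones, so values within batch A could not be had.

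The interaction, the day 14 pregnancy difference minus that on day 12, asks whether pregnancy went with another difference on the later day. It passed for 0 of 15 sets in limma (0.0874% of all sets), and 0 of 15 had an unadjusted p below 0.05 (9.42% of all sets). By brightest sets all 9 genes had positive estimates, against 49.5% of all genes, and 11 of 15 sets did, against 52.9% of all sets. The estimates of the 9 genes ran from 0.14 for CD3E to 0.46 ± 0.241 for CD3G (limma adjusted p = 0.59). Their median was 0.256, beside -0.003 over all genes. A difference between the day effects in pregnant and non-pregnant ewes was therefore not shown for any of them.

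After the CD3G values had been seen, the average of the day differences in pregnant and non-pregnant ewes was added from the same fit, and what follows was thus prompted by the data. CD3G was at 5.08 to 5.67 in the 6 day 14 glands, against 4.41 to 5.05 in the 6 day 12 glands. The average difference was 0.51 ± 0.12 (interval 0.25 to 0.78, 1.43-fold), which did not pass in limma (adjusted p = 0.252, between 0.0944 and 0.512 over the alternatives run). CD3G was the 1 of 15 sets that was higher without overlap over all 12 arrays, against 0.133% of all sets. For CD247 the average was 0.30 ± 0.0947 (limma adjusted p = 0.409), with overlap. These 2 of 15 had an unadjusted p below 0.05 (8.45% of all sets), and 0 of 15 passed after adjustment (0.0583% of all sets).

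The mean of the centred levels of CD3G, CD3D, CD3E and CD247 was 0.03, 0.30 and 0.20 in day 14 pregnant glands, 0.05, 0.11 and 0.25 in day 14 non-pregnant glands, -0.26, -0.35 and -0.09 in day 12 pregnant glands and -0.14, 0.07 and -0.17 in day 12 non-pregnant glands. Day 12 non-pregnant replicate 2 was the only day 12 array above 0. The 4 genes did not all vary alike over the 12 arrays. Pearson correlations of CD3G were 0.81 with CD3E, 0.71 with CD247 and 0.43 with CD3D. Between CD3E and CD247 the correlation was 0.57, whereas CD3D had 0.17 with CD3E and -0.04 with CD247. Among 8151 genes above the dimmest 25%, the 5 whose levels were most like this profile over the 12 arrays were SCPEP1, a serine carboxypeptidase (Pearson r = 0.885, Spearman correlation 0.895), TMEM156, a membrane protein (0.879 and 0.916), DPP4, a surface dipeptidase (0.878 and 0.832), MGA, a transcriptional regulator (0.868 and 0.811), and BOLA-DRA, the class II histocompatibility alpha chain (0.866 and 0.839). These are descriptions over 12 arrays in 4 groups that differ in day and batch, and without the day 14 non-pregnant arrays r was 0.849 to 0.897 for the 5.

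DPP4 had 5.13, 5.42 and 5.35 in day 14 pregnant glands, 5.43, 5.34 and 5.51 in day 14 non-pregnant glands, 4.72, 4.68 and 4.98 in day 12 pregnant glands and 4.63, 4.86 and 4.71 in day 12 non-pregnant glands. As for CD3G, all its day 14 arrays were above all its day 12 arrays, against 0.133% of all sets. The day difference of DPP4 was 0.51 ± 0.11 in pregnant and 0.62 ± 0.127 in non-pregnant ewes (limma adjusted p = 0.84 and 0.0696). Their average, 0.56 ± 0.084, passed in limma (adjusted p = 0.0492), as did 0.0583% of all sets. DPP4 was picked for its likeness over these same arrays to a profile that holds CD3G, so none of this is a separate result. BOLA-DRA had 8.77, 9.77 and 9.47 in day 14 pregnant glands, against 8.47, 8.22 and 8.31 in day 12 pregnant glands, a difference of 1.0 ± 0.277 (limma adjusted p = 0.992). Its day 14 non-pregnant arrays, at 8.66, 9.80 and 9.75, overlapped those of day 12 non-pregnant ewes, at 8.73, 8.73 and 8.20.

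**Figure D4:**
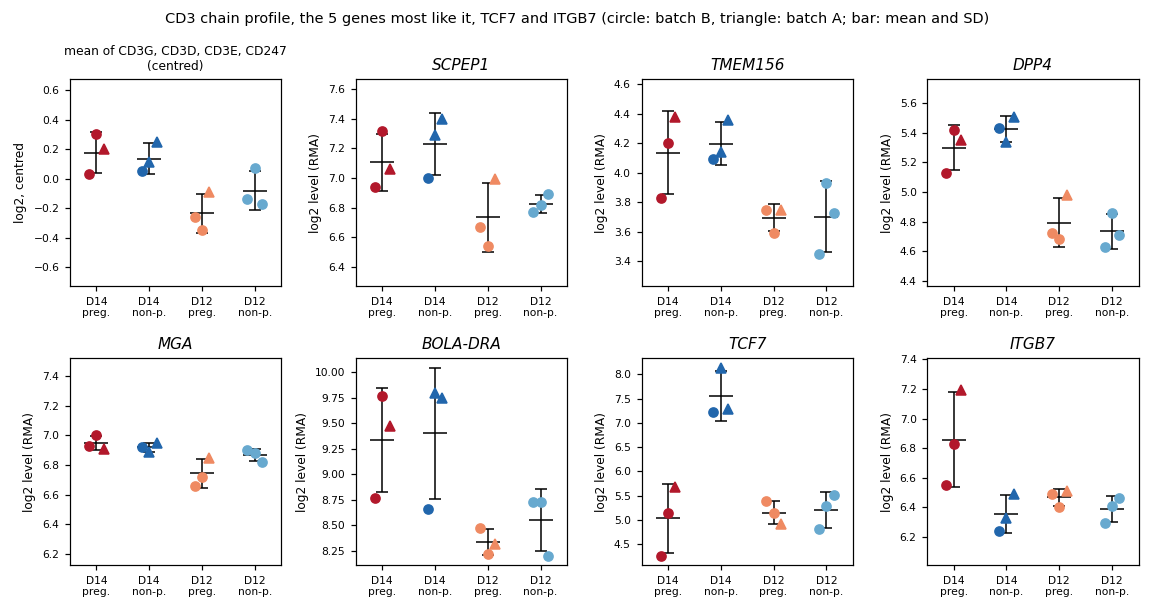
The centred mean of 4 CD3 and zeta chain genes, the 5 genes most like it, and TCF7 and ITGB7 in the 12 glands (log2 level, vertical axes; points are arrays, triangles batch A, bars mean and SD, n = 3). DPP4 separates by day, the CD3 profile overlaps between the days (0.07 in a day 12 non-pregnant gland, against 0.03 in the lowest day 14 gland), TCF7 stands high at 7.22 to 8.14 in day 14 non-pregnant glands, and ITGB7 is highest in day 14 pregnant glands.

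Beyond the markers, 94 further T cell related genes of 6 lists were measured, each by its brightest probe set, and 2 of them, TCF7 and ITGB7, passed for pregnancy on day 14. Over all genes 178 of 9155 passed there, so this count is near the background. TCF7, a transcription factor of T cell development and of Wnt signalling in many cell types, had 4.26, 5.15 and 5.67 in day 14 pregnant glands, against 7.22, 8.14 and 7.29 in day 14 non-pregnant glands, with no overlap. It fell by 2.40 ± 0.333 (log2) in pregnant relative to non-pregnant ewes on day 14 (limma adjusted p = 0.00669, adjusted p = 0.065 with the 6 arrays of these groups alone), and its dimmer set did so by 1.20 ± 0.236 (adjusted p = 0.0324). Day 12 glands had 5.38, 5.15 and 4.92 when pregnant and 4.80, 5.29 and 5.52 when not, so that TCF7 rose by 2.10 ± 0.37 in day 14 relative to day 12 non-pregnant ewes (limma adjusted p = 0.0396, between 0.00453 and 0.264 over the alternatives). In the same arrays CD3G differed by 0.21 with pregnancy on day 14, and CD3E and CD247 by -0.05 and -0.005. The interaction of TCF7 was -2.23 ± 0.489 and did not pass (limma adjusted p = 0.176). The other 8 measured lymphocyte transcription factors did not pass, and IKZF3, an Ikaros factor of lymphocytes, had the smallest p between the days in pregnant ewes (0.25 ± 0.127).

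ITGB7, the beta chain of integrins that guide lymphocytes to mucosa, had 6.55, 6.83 and 7.19 in day 14 pregnant glands, against 6.24, 6.33 and 6.49 in day 14 non-pregnant glands, without overlap. It rose by 0.58 ± 0.122 in pregnant relative to non-pregnant ewes on day 14 (limma adjusted p = 0.0411), a call that was lost in 10 of the 12 fits that left out 1 array (adjusted p up to 0.249, without day 14 pregnant replicate 3). Day 12 glands had 6.49, 6.40 and 6.51 when pregnant and 6.29, 6.41 and 6.46 when not, and 0.39 ± 0.117 between the days in pregnant ewes did not pass (adjusted p = 0.992). The other 20 measured homing genes did not pass between pregnant and non-pregnant ewes on day 14. Between the days in pregnant ewes 0 of 21 passed, and 2 had an unadjusted p below 0.05, against 418 of 9155 genes. There CXCL10, an interferon-induced chemokine for activated T cells, had 5.91, 6.71 and 5.89 on day 14, against 5.23, 4.85 and 5.34 on day 12, with no overlap (1.03 ± 0.23, limma adjusted p = 0.84).

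Of the 22 measured genes of receptor signalling and co-stimulation, 0 passed in limma in either comparison, 1 and 0 had an unadjusted p below 0.05, and the medians were 0.063 for pregnancy on day 14 and 0.055 between the days in pregnant ewes. The smallest p were those of FYN, a kinase related to LCK and present in many tissues (0.53 ± 0.178 with pregnancy, limma adjusted p = 0.174), and of SLA2, an adaptor that dampens receptor signalling (-0.17 ± 0.0829 between the days, adjusted p = 0.992). The SLA2 set, the brighter of 2, had a mean level of 11.4, and what it reads in this tissue was not tested. Of these 22, 7 were in the dimmest 25%, among them the co-stimulatory receptor CD28 and the helper cell ligand CD40LG. Among 15 cytotoxic granule and natural killer cell genes 0 passed in limma, with 0 and 1 at an unadjusted p below 0.05. Of these, 14 were above 0 with pregnancy on day 14 and 11 between the days in pregnant ewes, with medians of 0.150 and 0.098. NCR3, an activating receptor of natural killer cells (0.18 ± 0.0938, adjusted p = 0.404), and CTSW, a protease of cytotoxic lymphocytes (0.36 ± 0.157, adjusted p = 0.992), had the smallest p. In the same comparisons, in that order, 55.6% and 45.3% of all genes were above 0, with medians of 0.026 and -0.015. An unadjusted p below 0.05 was met by 1668 and 418 of 9155 genes.

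In the list of 7 regulatory and checkpoint genes 0 passed in limma, with 1 and 0 at an unadjusted p below 0.05, against 1668 and 418 of 9155 genes. CTLA4, an inhibitory receptor, had the smallest p with pregnancy on day 14 (-1.09 ± 0.276, limma adjusted p = 0.0835), and FOXP3, the regulatory T cell factor, that between the days in pregnant ewes (-0.08 ± 0.0841, adjusted p = 0.992). CTLA4 had 5.33, 4.80 and 5.07 in day 14 pregnant glands, against 6.07, 5.64 and 6.80 in day 14 non-pregnant glands, without overlap. Of 21 cytokine and receptor genes 0 passed in limma, with 1 and 0 at an unadjusted p below 0.05 and medians of 0.030 and 0.028. IL15, which sustains memory T cells and natural killer cells, was at 0.24 ± 0.1 with pregnancy on day 14 (limma adjusted p = 0.272), and LTB, a lymphotoxin chain, at 0.49 ± 0.233 between the days in pregnant ewes (adjusted p = 0.992). IL15 was in the dimmest 25%, as were the T cell cytokines IL2, IL4, IL21 and IFNG.

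Markers of other leukocytes were read in the same glands. Between the days in pregnant ewes, 12 of 14 pan-leukocyte markers and 12 of 14 macrophage and monocyte markers were above 0, with medians of 0.198 and 0.151. Over all genes 45.3% were above 0, with a median of -0.015. In limma 0 of these markers passed, and 1 and 0 had an unadjusted p below 0.05, against 418 of 9155 genes. CORO1A, an actin regulator of leukocytes (0.64 ± 0.271, adjusted p = 0.992), and CYBB, a subunit of the phagocyte oxidase (0.75 ± 0.416, adjusted p = 0.992), had the smallest p of these lists. The mean level of the pan-leukocyte list was 5.83 to 6.29 in day 14 pregnant arrays, against 5.86 to 5.92 in day 12 pregnant arrays, and that of the macrophage list 6.33 to 6.77, against 6.31 to 6.51. The 9 T cell markers averaged 5.33 to 5.62 in day 14 pregnant arrays, against 5.14 to 5.33 in day 12 pregnant arrays. No pan-leukocyte marker and 1 macrophage marker, ITGAM, was in the dimmest 25%, whereas of the 8 measured B cell markers the defining MS4A1 and CD79A were there, along with POU2AF1. The part of these other leukocytes in the T cell marker values was not tested.

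With pregnancy on day 14, 6 of 14 pan-leukocyte and 7 of 14 macrophage markers were above 0, with medians of -0.056 and 0.033. Over all genes 55.6% were above 0, with a median of 0.026. In limma 0 of these markers passed, and 3 and 6 had an unadjusted p below 0.05, against 1668 of 9155 genes. Those 6 macrophage genes went both ways. CYBB was at 1.56, VSIG4 at 0.74 and CSF1R at 0.47, whereas CD68 was at -0.63, MSR1 at -0.50 and CD14 at -0.44. VSIG4, a complement receptor of macrophages, had the smallest p of the macrophage list (0.74 ± 0.174, limma adjusted p = 0.0649). Mean levels were 5.83 to 6.29 in pregnant and 5.88 to 6.30 in non-pregnant arrays for the pan-leukocyte list, and 6.33 to 6.77 and 6.06 to 7.0 for the macrophage list. B cell genes had medians of 0.085 with pregnancy on day 14 and 0.179 between the days in pregnant ewes, with CD79A, a B cell receptor chain, at 0.33 ± 0.102 (limma adjusted p = 0.142) and CR2, a complement receptor of B cells, at 0.23 ± 0.101 (adjusted p = 0.992). Between the days in pregnant ewes, none of the 3 dendritic and 6 neutrophil and eosinophil markers passed, with CD83 at 0.22 ± 0.185 and CCR3 at 0.24 ± 0.174. With pregnancy on day 14 none of them passed either, with LAMP3 at -0.44 ± 0.18 and S100A12 at -0.52 ± 0.321.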

How the data were processed

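The authors deposited log2 values of 24128 probe sets. Per the submitters' processing notes they come from Affymetrix Expression Console and RMA, whose version and options are not given in the sources used here. Per the labels' protocols, glands were snap frozen, RNA was extracted with Trizol and labelled with a whole-transcript terminal labelling kit and biotin. Groups came from the source labels. The titles name day 12 pregnant for all arrays, which conflicts with 9, and were not used. Replicates were numbered in accession order and pair nothing.

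After removal of 112 control probe sets, 24016 were fitted with limma 3.58.1 in R 4.3.3, with a mean per group and a batch term over all 12 arrays (7 residual and 4.391 prior degrees of freedom). Tests were two-sided, with Benjamini-Hochberg adjustment over all sets and a threshold of 0.05. An exact permutation test of 3 against 3 arrays cannot go below p = 0.1 and was not used. The platform annotation gives 1 symbol to 13292 probe sets, several to 86 and none to 10638, and symbols can be old.

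All member probe sets are described. From each other list, genes past the threshold are named, up to 4, or else the gene with the smallest p in the day 14 pregnancy difference and in the pregnant day difference. The pan-leukocyte gene that this rule picks for the day 14 pregnancy difference is not reported here. Markers of luteal, endothelial, fibroblast, smooth muscle and red cells were read as well. The members, lists and comparisons were chosen with earlier results of these data known. No sequence table was used here, so a planned search for the activation motif of CD3 proteins was not made. The script was tested on simulated data. The number of arrays limits the precision.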

Additional observations from a re-analysis of the deposited data

Results flagged for a closer look

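CNN1, a calponin of smooth muscle on the list of smooth muscle and pericyte markers, drew attention because the interaction of day and pregnancy passed in limma. It had 5.94, 6.16 and 6.43 in day 14 pregnant glands, against 7.78, 7.98 and 7.61 in day 14 non-pregnant glands. On day 12 it had 6.13, 6.15 and 6.40 in pregnant and 6.32, 6.01 and 6.48 in non-pregnant glands. The interaction was -1.43 (adjusted p = 0.0456), and the call was lost in most fits that left out 1 array, with adjusted p between 0.0132 and 0.161 over the alternatives.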

How the results depend on the processing

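Alternatives tried were a fit lacking the batch term, a random block for batch, only the groups compared (not for the interaction or the average), array quality weights, an intensity trend with robust prior, arrays centred on their medians, no dimmest 25%, the mean of a gene's probe sets, values within batches, and leaving out each array in turn. The number of member probe sets past the threshold was 0 in all 112 recomputed counts. Of 1062 tested member differences 1060 kept their direction and side of the threshold, where a change of sign was counted only for a difference beyond its standard error. CD3E in day 12 pregnant against day 12 non-pregnant glands ranged from -0.341 to 0.013 over the fits without 1 array. It was 0.013 without day 12 pregnant replicate 2, and the cause was not tested. GZMB in day 14 against day 12 non-pregnant glands was 0.095 with only the groups compared. That value rests on 1 day 14 array, since the batch term takes up the batch A arrays, all of them day 14 ones here. Of 126 medians over the 9 genes, 118 moved by less than 0.086, the spread between replicates. Without 1 array the median ranged from 0.051 to 0.227 for pregnancy on day 14, from 0.143 to 0.362 between the days in pregnant ewes and from -0.199 to -0.078 for pregnancy on day 12. It was 0.144 between the days in pregnant ewes with averaged probe sets and -0.057 in non-pregnant ewes with a random block. Within batches, 65 of 72 member values stayed within the gene's spread. For 6 named genes of other lists (chosen after seeing the data), 52 of 336 values lost and 7 gained a call, and 0 reversed. No paired analysis was possible because replicates were numbered by accession and no label links ewes across groups.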

Other observations

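Markers of cells other than leukocytes were 9 luteal, 9 endothelial, 7 smooth muscle and pericyte, 7 fibroblast and 5 red cell genes. Of these, 4 single genes passed with pregnancy on day 14, where 178 of 9155 genes passed. STAR, which brings cholesterol to the site of steroid synthesis, had 13.12, 13.11 and 13.13 in day 14 pregnant glands, against 12.68, 12.18 and 12.21 in day 14 non-pregnant glands (0.74 ± 0.133, limma adjusted p = 0.0245). Of 9 luteal markers 8 were above 0, against 55.6% of all genes, and STAR alone passed. Of 9 endothelial markers 2 rose, CD34, a surface sialomucin (1.09 ± 0.161, adjusted p = 0.00828), and TIE1, a receptor kinase (0.48 ± 0.0883, adjusted p = 0.0266), while 4 of the 9 were above 0 and the list's median was -0.076. CNN1 fell by 1.54 ± 0.148 (adjusted p = 0.000974) and was the 1 of 7 smooth muscle and pericyte markers past the threshold. In that list 3 of 7 were above 0, with a median of -0.104, and MYH11, a smooth muscle myosin named after its values were seen, stood opposite to CNN1 at 0.72 ± 0.19 (adjusted p = 0.0962) without overlap. None of the 7 fibroblast and 5 red cell genes passed, with COL1A1 at 0.35 ± 0.182 and SLC4A1 at 0.32 ± 0.134. STAR, CD34 and TIE1 lost their calls in some fits without 1 array or with only the groups compared, with adjusted p up to 0.162, 0.0917 and 0.208.

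Between the days in pregnant ewes 0 markers of these 5 lists passed in limma, and 2 endothelial ones had an unadjusted p below 0.05, against 418 of 9155 genes. The smallest p were those of SCARB1 (-0.23 ± 0.128), TIE1 (-0.23 ± 0.0849), LUM (0.22 ± 0.153), PDGFRB (-0.23 ± 0.13) and ALAS2 (-0.19 ± 0.125).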
